A study of Mus musculus with 7 samples.

Results

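The 10 genes described here encode integrin chains and adhesion molecules of T lymphocytes. They were selected by gene symbol from the 55367 genes of the count table, with earlier results of these data known. They comprise 4 integrin alpha chains (Itga4, Itgal, Itgae and Itgav), 3 integrin beta chains (Itgb1, Itgb2 and Itgb7), the integrin ligand Icam1, the hyaluronan receptor Cd44 and the selectin ligand Selplg. All 10 were present in the table, and all 10 passed the minimum mean of 5 counts per library, which kept 12623 genes. Their RNA was measured in CD8+ T cells from the spleens of Foxp3 YFP/cre mice, a reporter strain used by the study to isolate regulatory T cells, after 48 hours with small extracellular vesicles (sEVs) at 100 µg/mL. LME-sEVs (3 libraries) were purified from leukemic spleens of Eμ-TCL1 mice, in which a TCL1 transgene drives a B-cell leukemia, and HCME-sEVs (4 libraries) from spleens of healthy mice. Per the methods, the cells of both groups were kept in wells coated with anti-CD3, with anti-CD28 and IL2, so every level below is that of stimulated cells, and no library without sEVs was part of the comparison. The sample annotation assigns the libraries to the groups and every direction below rests on it, whereas a legend of the study gives the group sizes the other way round. The annotation gives no age, and the study's general methods describe young adult mice unless stated otherwise. The amount of sEVs is that of the sample annotation, the same for both groups. The methods speak instead of the physiologic amount in the respective spleens, and the study recovered more sEV protein per gram of leukemic spleen. By that account the groups would differ in the amount of sEVs as well as their source, which could not be told apart. Nothing states whether the libraries came from separate mice or cultures, so that p-values measure the spread between these libraries, which may be technical.

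Integrins are pairs of an alpha and a beta chain in the plasma membrane, and both chains must be made for either to reach the surface. In T cells the Itgal and Itgb2 chains form LFA-1, which binds ICAM-1 on target cells and holds the immune synapse together. Itga4 pairs with Itgb1 to form VLA-4, which binds VCAM-1 and fibronectin, or with Itgb7 to form the gut-homing receptor for MAdCAM-1. Itgae pairs with Itgb7 and binds E-cadherin, whereas Itgav pairs with Itgb1 and other beta chains to bind ligands with an RGD motif. Selplg encodes PSGL-1, the scaffold of selectin ligands, and Cd44 binds hyaluronan and can carry selectin ligands as well.

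The promoters of Itga4 and Icam1, the members with the largest changes in either direction, are shown because the transcripts of both genes moved between the groups. The sequences are from RefSeq (GRCm38.p6), cover the 250 bases before the start given there, and are written 5′ to 3′ on the strand of the gene with motif matches in capitals. Promoter entries were found for 6 of the 10 genes, whereas Itgal, Itgae, Itgb2 and Selplg had none. In the Itga4 promoter (chr2:79255176-79255425, plus strand) the capitals mark, in order, an SP1 motif (114 bases before the start) and a RUNX motif (60 bases before it), and in the Icam1 promoter (chr9:21015690-21015939, plus strand) they mark a pair of NF-kB motifs (153 and 84 bases before the start), a STAT motif (42) and an SP1 motif (17).
Itga4: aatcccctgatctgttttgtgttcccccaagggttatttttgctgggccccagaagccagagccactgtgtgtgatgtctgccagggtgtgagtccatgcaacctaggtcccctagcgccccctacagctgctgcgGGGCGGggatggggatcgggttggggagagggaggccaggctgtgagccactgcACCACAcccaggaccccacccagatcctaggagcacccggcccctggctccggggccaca
Icam1: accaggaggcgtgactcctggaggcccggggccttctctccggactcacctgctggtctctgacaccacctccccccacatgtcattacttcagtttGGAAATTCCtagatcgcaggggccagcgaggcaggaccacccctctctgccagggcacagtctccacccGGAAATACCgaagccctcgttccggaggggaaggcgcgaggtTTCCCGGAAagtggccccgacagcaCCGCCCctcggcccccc
Of 32851 promoters of the same length, 15.7% held the NF-kB motif searched (GGNNNTTCC), 7.02% the STAT motif (TTCNNNGAA), 32.7% the SP1 motif (GGGCGG), 14.0% the RUNX motif (TGTGGT) and 23.3% the ETS motif (GAGGAA). Both strands were searched, and no matches overlapped in the printed sequences. Among the other members, Itgb1 held an NF-kB, an SP1 and an ETS match, Itgav and Cd44 held 2 ETS matches each, and Itgb7 held none. A match gives letters only and was not linked to binding by any measurement here.

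Totals lay between 3689831 and 5030522 counts per library, and 3 counts, the smallest level taken as detectable, corresponded to between 0.580 and 0.804 CPM (counts scaled to library size with TMM normalization). Each count stands for a captured molecule read at its 3′ end, so that gene length does not enter a level and splice forms, such as the variants of Cd44, cannot be told apart. Of the 8 CD8 T cell markers, all were tested and summed to between 2140 and 2360 CPM with HCME-sEVs and between 2380 and 2710 CPM with LME-sEVs, and 2 of them (Cd3e and Cd3g) rose. The markers of other cell types that were called were all higher with LME-sEVs. The 12 basophil and mast cell markers summed to between 15.6 and 44.5 CPM against between 44.8 and 68.3 CPM (4 higher), the 14 platelet and erythroid markers to between 135 and 252 CPM against between 223 and 286 CPM (3 higher), and the 12 myeloid markers to between 2.53 and 5.04 CPM against between 7.15 and 9.65 CPM (none called, Fcgr1 at 0 in all 7 libraries). The 4 CD4 T cell markers summed to between 6.25 and 14.4 CPM against between 15.2 and 17.2 CPM. Most of that sum came from Zbtb7b, the 1 called higher. Cd4 itself held 3 counts or fewer, Foxp3 1 or none and Cd40lg 3 to 5. The 12 B cell markers summed to between 17.2 and 19.5 CPM against between 20.9 and 22.4 CPM (1 higher, with Cd79a at 2 counts or none), and the 6 NK cell markers to between 321 and 369 CPM against between 360 and 402 CPM (1 higher, with Ncr1 at 1 count or none). Most of the NK cell sum came from Eomes and Klrk1, which CD8+ T cells also express. No marker of any list was called lower. The part of such cells in the results below was not tested, and in these bulk libraries fewer cells of a type and less RNA per cell cannot be told apart.

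Among the members, Itga4 and Itgb2 rose and Icam1 fell with LME-sEVs, whereas 7 did not pass the test. A gene was called at a false discovery rate (FDR) under 0.05, the p-value of edgeR's quasi-likelihood test adjusted by Benjamini and Hochberg over all 12623 genes. Thus 3 of 10 members (30%) were called, beside 8.96% of all tested genes (1131, of which 473 were higher and 658 lower with LME-sEVs, or 614 and 465 when scaling used library size only). The 2 that rose stood beside a background of 3.75% of genes called higher, and the 1 that fell beside 5.21% called lower. None reached the log2 fold change beyond 1 that defines a DEG, a class that held 1.28% of all tested genes. The median log2 fold change of the members was 0.15, beside 0.01 over all tested genes, and 8 of 10 members had a positive value, beside 51.5% of all tested genes. Over the gene lists given further below, positive values ran from 5 of 17 tested genes (selectins and PSGL-1 glycosylation) to 7 of 8 (other integrin chains). The libraries of both groups did not overlap for 3 members (Itga4, Selplg and Icam1), beside 20.3% of all tested genes.

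**Figure D1:**
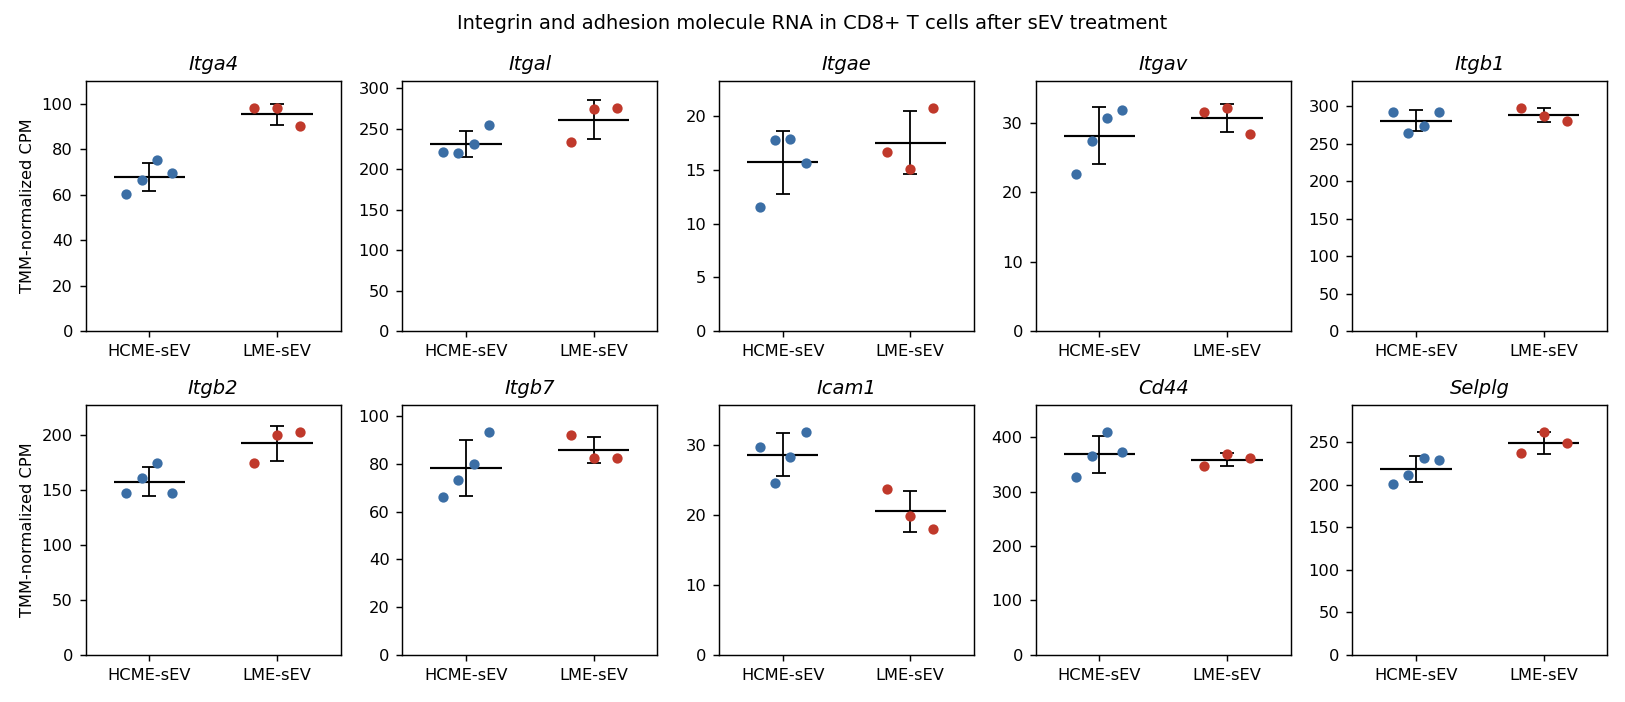
TMM-normalized CPM of each of the 10 genes (y axes, linear and from 0) in the 4 HCME-sEV libraries (blue) and the 3 LME-sEV libraries (red). Each point is 1 library, and the bar and whiskers are the mean and SD. The Itga4 points lie at 75.2 CPM or lower with HCME-sEVs and at 90.2 CPM or higher with LME-sEVs, and those of Icam1 lie the other way round.

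Itga4, the alpha chain of VLA-4 and of the MAdCAM-1 receptor (chr2:79255426-79333123, plus strand, GRCm38), had the largest increase among the members. Its level was 60.2, 66.4, 75.2 and 69.6 CPM in HCME-sEV libraries 1 to 4 and 98.2, 98.0 and 90.2 CPM in LME-sEV libraries 1 to 3. Every LME-sEV library lay above every HCME-sEV library, with a gap about as wide as the range of the HCME-sEV libraries. The means were 67.9 ± 6.26 and 95.4 ± 4.58 CPM (SD, n = 4 and n = 3), a log2 fold change of 0.49 (SE 0.093, 95% interval 0.30 to 0.68, FDR = 0.00240 by edgeR's quasi-likelihood test), or 1.41-fold. Each value rests on 250 to 465 counts. An exon of Itga4 overlaps one of Cerkl on the opposite strand, and whether counting used the strand was not stated. Cerkl held 13 to 27 counts with HCME-sEVs and 29 to 34 with LME-sEVs, and its part in the Itga4 counts was not tested. The call was kept in each of the 7 fits that left out 1 library, with log2 fold changes between 0.44 and 0.54.

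Itgb2, the common beta chain of leukocyte integrins and the partner of Itgal in LFA-1 (chr10:77530252-77565708, plus strand), increased as well. It measured 147, 161, 175 and 148 CPM in HCME-sEV libraries 1 to 4 and 174, 200.5 and 203 CPM in LME-sEV libraries 1 to 3. HCME-sEV library 3 and LME-sEV library 1 were level, so the groups met, whereas the other LME-sEV libraries lay above all others. The means were 158 ± 13.0 and 193 ± 16 CPM (SD, n = 4 and n = 3), and the log2 fold change was 0.29 (SE 0.086, 95% interval 0.11 to 0.47, FDR = 0.0369 by edgeR's quasi-likelihood test). This call was less stable than that of Itga4, since it was kept in only 2 of the 7 fits that left out 1 library, with FDR between 0.0135 and 0.179 and log2 fold changes between 0.25 and 0.36. The call was lost without HCME-sEV library 1, 2 or 4 and without LME-sEV library 2 or 3.

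Icam1, the ligand of LFA-1, which activated T cells also carry (chr9:21015985-21028817, plus strand), was the only member called lower. Its level was 29.6, 24.6, 28.3 and 31.9 CPM in HCME-sEV libraries 1 to 4 and 23.7, 19.8 and 18.0 CPM in LME-sEV libraries 1 to 3. The groups did not overlap, but HCME-sEV library 2 and LME-sEV library 1 lay close to each other. The means were 28.6 ± 3.06 and 20.5 ± 2.89 CPM (SD, n = 4 and n = 3), and the level fell by 0.49 on the log2 scale (SE 0.14, 95% interval -0.78 to -0.21, FDR = 0.0276 by edgeR's quasi-likelihood test), to 0.710 of that with HCME-sEVs. Icam1 had 88 to 137 counts per library, and an overlapping gene on the opposite strand, Gm47079, had 4 or fewer. Its call was lost without HCME-sEV library 4 (FDR = 0.0840), LME-sEV library 2 (FDR = 0.118) or LME-sEV library 3 (FDR = 0.165) and in the DESeq2 Wald test (FDR = 0.0568), always with a negative log2 fold change, from -0.60 to -0.40 over the 7 fits without 1 library.

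**Figure D2:**
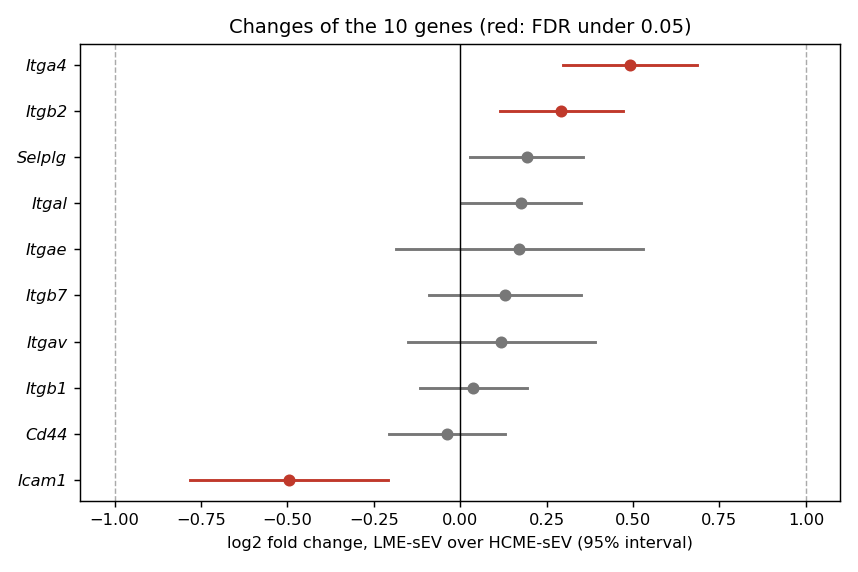
Log2 fold change of each of the 10 genes, LME-sEVs over HCME-sEVs (x axis), with its 95% interval, ordered from Itga4 at the top to Icam1 at the bottom. Red marks an FDR under 0.05 and the dashed lines mark the log2 fold changes of 1 and -1 that define a DEG; no interval reaches either line.

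Itgal, the alpha chain of LFA-1 (chr7:127296260-127335138, plus strand), did not pass the test, although its log2 fold change had the sign of that of its partner Itgb2. It measured 221, 219, 230 and 255 CPM in HCME-sEV libraries 1 to 4 and 234, 274 and 276 CPM in LME-sEV libraries 1 to 3. LME-sEV library 1 lay among the HCME-sEV libraries and the other 2 lay above them. The means of 231 ± 16.3 and 261 ± 24 CPM (SD, n = 4 and n = 3) gave a log2 fold change of 0.18 (SE 0.083, FDR = 0.210 by edgeR's quasi-likelihood test), with a 95% interval from 0.0034 to 0.35.

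Selplg (chr5:113818536-113832644, minus strand) was higher with LME-sEVs in every library, so that the groups did not overlap, but it did not pass the test over all genes. The values were 201, 212, 232 and 229.6 CPM in HCME-sEV libraries 1 to 4 and 237, 263 and 249 CPM in LME-sEV libraries 1 to 3. The gap between the groups was small beside the range within each. The means were 219 ± 14.9 and 249.6 ± 12.7 CPM (SD, n = 4 and n = 3), and the log2 fold change was 0.19 (SE 0.079, 95% interval 0.029 to 0.36, FDR = 0.140 by edgeR's quasi-likelihood test). An unadjusted p under 0.05 was found for 5 of 10 members, namely the 3 called ones, Itgal and Selplg.

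The beta chains Itgb1 and Itgb7 did not pass the test. Itgb1 (chr8:128685654-128733200, plus strand), the beta chain of the VLA family, was at 281 ± 13.9 CPM (SD, n = 4) with HCME-sEVs, from 265 to 293 CPM, and at 289 ± 9.10 CPM (SD, n = 3) with LME-sEVs, from 280.0 to 298 CPM. Its log2 fold change of 0.04 (SE 0.074, FDR = 0.821) had a 95% interval from -0.12 to 0.19, which leaves out a change as large as that of Itga4. Itgb7 (chr15:102215995-102231944, minus strand), the partner of both Itga4 and Itgae, ranged from 66.3 to 93.6 CPM with HCME-sEVs and from 82.6 to 92.0 CPM with LME-sEVs. The means were 78.3 ± 11.7 and 85.8 ± 5.41 CPM (SD, n = 4 and n = 3), with a log2 fold change of 0.13 (SE 0.11, 95% interval -0.091 to 0.35, FDR = 0.514). All 3 LME-sEV libraries of Itgb7 lay within the range of the HCME-sEV libraries.

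Cd44 (chr2:102811141-102901665, minus strand), a receptor that rises on T cells after activation, had the highest level of the members and did not differ detectably. It ranged from 327 to 411 CPM with HCME-sEVs and from 346 to 369 CPM with LME-sEVs, so that the LME-sEV libraries lay inside the HCME-sEV range. The means were 369 ± 34.0 and 359 ± 11.6 CPM (SD, n = 4 and n = 3), and the log2 fold change of -0.04 (SE 0.080, 95% interval -0.21 to 0.13, FDR = 0.833) turned positive when scaling used library size only and without HCME-sEV library 3.

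The lowest alpha chains, Itgav and Itgae, did not pass the test and had wide intervals. Itgav (chr2:83724397-83806916, plus strand) ranged from 22.6 to 31.9 CPM with HCME-sEVs and from 28.3 to 32.1 CPM with LME-sEVs, with means of 28.1 ± 4.13 and 30.6 ± 2.05 CPM (SD, n = 4 and n = 3) and a log2 fold change of 0.12 (SE 0.13, 95% interval -0.15 to 0.39, FDR = 0.644). Itgae (chr11:73090583-73147446, plus strand), which marks CD8+ T cells resident in epithelia, ranged from 11.6 to 17.9 CPM with HCME-sEVs and from 15.1 to 20.7 CPM with LME-sEVs, with means of 15.7 ± 2.94 and 17.5 ± 2.93 CPM (SD, n = 4 and n = 3). Its log2 fold change of 0.17 (SE 0.17, 95% interval -0.19 to 0.53, FDR = 0.608) rests on 48 to 107 counts per library, at which neither a rise like that of Itga4 nor a small fall can be told from no change.

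The levels of the 10 genes spanned 23.5-fold with HCME-sEVs. They stood in the order Cd44, Itgb1, Itgal, Selplg, Itgb2, Itgb7, Itga4, Icam1, Itgav and Itgae, from 369 to 15.7 CPM, and the percentile of their levels among tested genes ran from 96.8 to 44.0. Of the neighbours in this order, Itgal and Selplg overlapped (Itgal was higher in 5 of 7 libraries), as did Itgb7 and Itga4 (Itgb7 higher in 4 of 7). Icam1 and Itgav overlapped with HCME-sEVs, and Icam1 was higher in only 1 of 7 libraries. The other neighbours kept their order in 7 of 7 libraries. With LME-sEVs the order of the means turned for 2 pairs, with Itga4 at 95.4 CPM above Itgb7 at 85.8 CPM and Itgav at 30.6 CPM above Icam1 at 20.5 CPM. HCME-sEV library 1 had the lowest level of its group for 7 of 10 members, all but Itgal, Itgb1 and Icam1. The summed CPM of the members was 1380 in it and up to 1554 in the other HCME-sEV libraries, beside 1552 to 1642 with LME-sEVs. The share of all tested genes that were lowest in HCME-sEV library 1 was not counted, so this is not read as a trait of the members. Without that library Itga4 and Icam1 were still called and Itgb2 was not (FDR = 0.0635 by edgeR's quasi-likelihood test).

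Because an integrin needs both chains, the ratio of partner chains was compared within each library, where scaling to library size cancels. The difference in log2 ratio (count + 0.5 for either chain) was tested by exact permutation (two-sided, all 35 ways to assign 7 libraries to groups of 4 and 3, smallest possible p 0.0286), with adjustment over the 5 pairs. The log2 ratio of Itga4 to Itgb1 was -2.28, -1.995, -1.86 and -2.07 in HCME-sEV libraries 1 to 4 and -1.60, -1.55 and -1.63 in LME-sEV libraries 1 to 3. All 3 LME-sEV libraries lay above all 4 HCME-sEV libraries. The means were -2.05 ± 0.18 (SD, n = 4) and -1.60 ± 0.041 (SD, n = 3), a difference of 0.46 with the smallest p an exact permutation test can give here (p = 0.0286, adjusted p = 0.0714). In counts, Itga4 went from 0.241 to 0.331 per count of Itgb1. The ratio of Itga4 to Itgb7 did not overlap between the groups either, at -0.20 ± 0.15 (SD, n = 4) and 0.15 ± 0.079 (SD, n = 3), so that Itga4 had fewer counts than Itgb7 with HCME-sEVs (0.871) and more with LME-sEVs (1.11). That difference of 0.35 had the same exact permutation p = 0.0286 (adjusted p = 0.0714). Neither passed after adjustment. Both stood at the smallest possible p, so whether they passed depended only on how many of the 5 pairs reached it. Their failure to pass is therefore no sign of an absent difference.

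The proportion of the LFA-1 chains did not differ beyond the spread between libraries. The log2 ratio of Itgal to Itgb2 was 0.55 ± 0.17 (SD, n = 4) with HCME-sEVs and 0.44 ± 0.016 (SD, n = 3) with LME-sEVs, a difference of -0.12 (exact permutation p = 0.371, adjusted p = 0.619). The 3 LME-sEV libraries lay within 0.42 to 0.45, inside the HCME-sEV range of 0.40 to 0.78. Itgae to Itgb7 differed by 0.022 (exact permutation p = 0.914) and Itgav to Itgb1 by 0.092 (exact permutation p = 0.8, adjusted p = 0.914 for both), and the sign of both turned when HCME-sEV library 1 was left out.

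**Figure D3:**
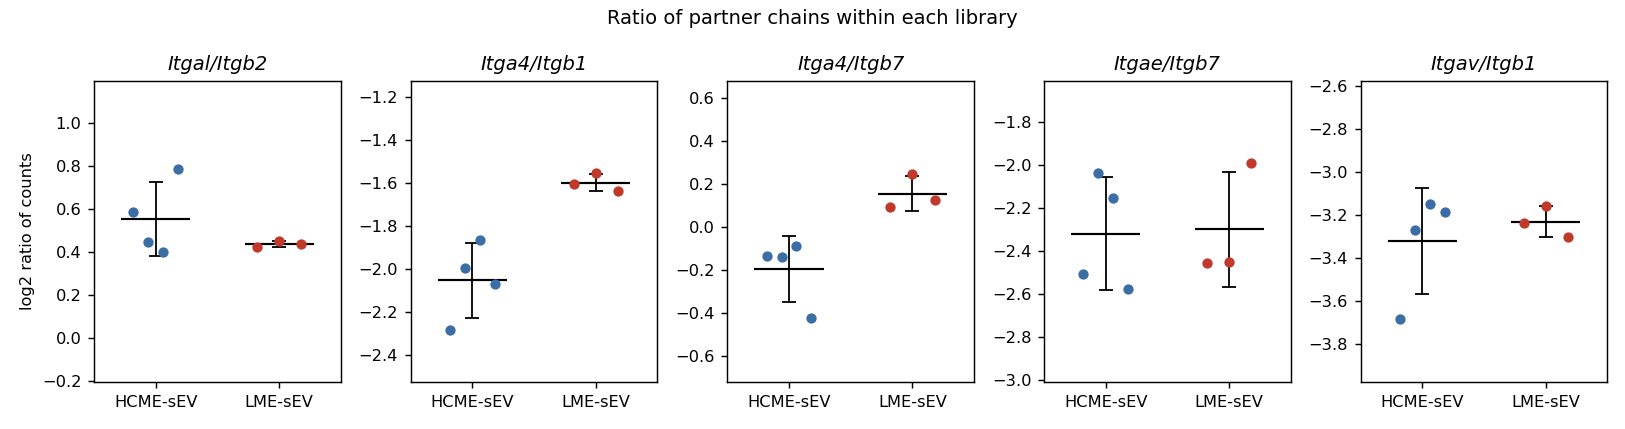
Log2 ratio of the counts of 5 pairs of integrin chains (y axes, each spanning the same number of log2 units) in the HCME-sEV (blue) and LME-sEV (red) libraries, with mean and SD. For Itga4 to Itgb1 the HCME-sEV points lie at -1.86 or lower and the LME-sEV points at -1.63 or higher, whereas for Itgal to Itgb2 the LME-sEV points lie inside the range of the HCME-sEV points.

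Of 19 other integrin chains, 8 were tested and none was called, with a median log2 fold change of 0.13. Among them, Itgb3, which can pair with Itgav, was at 57.0 ± 6.25 and 65.2 ± 7.52 CPM (SD, n = 4 and n = 3; FDR = 0.297), above Itgav itself, and Itga6, a laminin receptor chain, was at 46.1 ± 8.41 and 50.6 ± 0.955 CPM (FDR = 0.557). Itgb3 and Itga2b are also in the list of platelet and erythroid markers, of which 3 of 10 tested were called higher. The other partners of Itgb2 were near or below detection. Itgam, 766.4 kb from Itgal on chromosome 7, held 0 to 1 counts with HCME-sEVs and 6 to 8 with LME-sEVs, Itgax held 0 to 3 and 4 to 11 counts, and Itgad held at most 2, so that Itgal was the only abundant partner chain for Itgb2 in these libraries. Itgam, which is also in the list of myeloid markers, lay below the minimum mean of 5 counts, and it was called higher when no such filter was applied (FDR = 0.00221 by edgeR's quasi-likelihood test). Of other partners of Itgav, Itgb5 held 3 counts or fewer and Itgb6 none.

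Of 12 further integrin ligands, 6 were tested and none was called (median log2 fold change -0.03). Vcam1 and Madcam1, the ligands of the Itga4 pairs, had at most 6 and 2 counts. Icam2, a further ligand of LFA-1, was at 35.4 ± 4.34 and 29.0 ± 3.74 CPM (FDR = 0.174), with the sign of Icam1, and the secreted ligand Spp1 was at 32.4 ± 4.35 and 42.1 ± 6.72 CPM (FDR = 0.0653).

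Of 28 genes of integrin activation, 25 were tested and 1 rose (4.0% called, median log2 fold change 0.02): Fyb, the adaptor ADAP that couples the T-cell receptor to LFA-1, went from 310 ± 30.1 to 431 ± 9.17 CPM (log2 fold change 0.47, SE 0.080, FDR = 0.00106). Talin (Tln1, FDR = 0.302), kindlin-3 (Fermt3, FDR = 0.516) and RIAM (Apbb1ip, FDR = 0.0914) did not pass. Of 31 adaptors and kinases of focal adhesions, 27 were tested and 1 rose (3.7%, median 0.04): Actn1, an actin cross-linker, went from 78.0 ± 16.5 to 121 ± 10.8 CPM (log2 fold change 0.64, SE 0.12, FDR = 0.00231). Fyb and Actn1 moved in the direction of Itga4 and Itgb2, and their groups did not overlap.

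Of 18 genes of selectins and of the glycosylation of PSGL-1, 17 were tested, 3 fell and 1 rose (23.5%), with a median log2 fold change of -0.28, opposite in sign to that of Selplg. Selp, which encodes P-selectin, fell from 14.7 ± 1.42 to 8.05 ± 1.84 CPM (log2 fold change -0.88, SE 0.19, FDR = 0.00640). Tpst1, which sulfates the tyrosines of PSGL-1, fell from 25.1 ± 3.99 to 17.1 ± 0.856 CPM (-0.54, SE 0.15, FDR = 0.0239). In contrast, C1galt1, which makes the core on which the selectin-binding glycans of PSGL-1 are built, rose from 60.9 ± 8.93 to 93.4 ± 16.6 CPM (0.63, SE 0.12, FDR = 0.00298). The fucosyltransferase Fut7 (13.9 ± 0.989 and 11.03 ± 1.36 CPM, FDR = 0.238) and St3gal6 (36.5 ± 2.48 and 28.6 ± 2.65 CPM, FDR = 0.0652) did not pass. The call of Selp was lost without LME-sEV library 3 (FDR = 0.0635), and that of Tpst1 without HCME-sEV library 1 (FDR = 0.0515) or any LME-sEV library (FDR up to 0.0855).

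Of 18 partners of CD44, 13 were tested and 1 rose (7.69%, median log2 fold change 0.08): Cd74, the invariant chain that forms the MIF receptor with CD44, went from 13.6 ± 1.04 to 19.8 ± 4.27 CPM (0.54, SE 0.16, FDR = 0.0400). This call was kept in only 2 of the 7 fits without 1 library (FDR up to 0.286; lost without HCME-sEV library 1, 2 or 4 and LME-sEV library 2 or 3). The linkers of CD44 to actin, Ezr (FDR = 0.289), Msn (FDR = 0.652) and Rdx (FDR = 0.409), did not pass, as Cd44 itself did not.

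Of 36 other adhesion molecules of T cells, 28 were tested, 5 rose and 3 fell (28.6%, median log2 fold change 0.04). Jaml, a junctional adhesion molecule of T cells, fell from 131 ± 6.86 to 66.4 ± 9.998 CPM (-0.98, SE 0.099, FDR = 7.65e-06), and the tetraspanin Cd82 fell from 53.0 ± 6.52 to 38.7 ± 2.09 CPM (-0.45, SE 0.11, FDR = 0.0144). Emb, an immunoglobulin-family adhesion molecule, rose from 239.9 ± 18.3 to 334 ± 10.04 CPM (0.48, SE 0.077, FDR = 6.91e-04), and Alcam, the ligand of CD6, from 88.0 ± 3.997 to 114 ± 1.24 CPM (0.37, SE 0.082, FDR = 0.00717). Pvr, a ligand of the receptors DNAM-1 and TIGIT, rose from 16.5 ± 0.538 to 26.2 ± 1.85 CPM (0.66, SE 0.13, FDR = 0.00317), and the tetraspanin Cd9 from 42.4 ± 3.97 to 63.5 ± 12.8 CPM (0.60, SE 0.12, FDR = 0.00454). The others called were Cd96, which rose, and Crtam, which fell. The call of Cd82 was lost without HCME-sEV library 2 (FDR = 0.0622) or LME-sEV library 1 (FDR = 0.0594) or 2 (FDR = 0.0805), and that of Cd9 without LME-sEV library 3 (FDR = 0.0615).

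**Figure D4:**
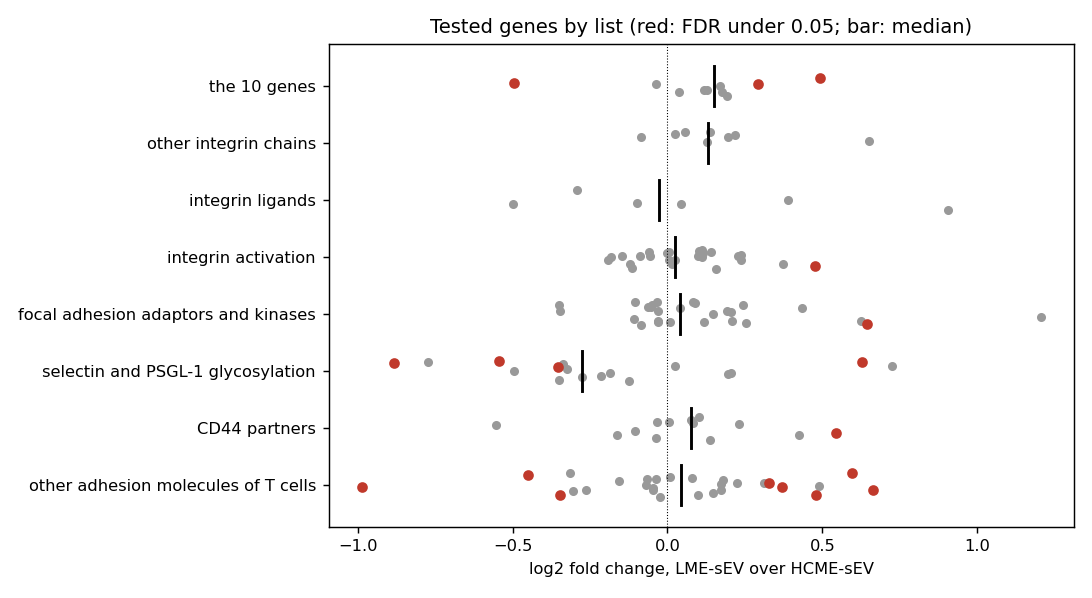
Log2 fold change, LME-sEVs over HCME-sEVs (x axis), of the tested genes of 8 lists (rows), with 1 point per gene, red for an FDR under 0.05 and a black bar at the median of each list. Of the 10 genes, 2 red points lie to the right and 1 to the left of 0, the list of other integrin chains has no red point, and the list of selectins and PSGL-1 glycosylation has its median at -0.28.

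The gene whose log2 CPM followed each called member most closely was sought among 9695 genes (mean count of 20 or more), by Pearson's r over the 7 libraries, which include the difference between the groups. For Itga4 it was Rora, which encodes a nuclear receptor (r = 0.996, with 256 genes above 0.9) and also rose (log2 fold change 1.01, FDR = 1.58e-04). For Itgb2 it was Reep5, a protein that shapes the endoplasmic reticulum (r = 0.995, 198 genes above 0.9), although Reep5 itself was not called (FDR = 0.128). For Icam1 it was Fadd, the adaptor of death receptors (r = 0.994, 135 genes above 0.9), which also fell (log2 fold change -0.57, FDR = 0.0484). With so few points and so many genes such values describe these libraries only.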

How the data were processed

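Expression was measured by 3′ RNA-seq with molecular identifiers (QuantSeq) in 7 libraries of CD8+ T cells, 4 with HCME-sEVs and 3 with LME-sEVs, grouped by the treatment in the sample annotation. Per the methods and the submitters' processing notes, the authors trimmed reads with cutadapt 2.10, mapped them to GRCm38 with STAR 2.5.3a, collapsed molecules with UMI-tools 1.0.0 and counted genes with featureCounts of Subread 2.0.0. The deposited values are whole-number counts per gene symbol, neither normalized nor filtered. The annotation release and the strand setting of counting were not given in the sources used here. Totals were 3689831 to 5030522 counts, and the floor of 3 counts covers counting error only.

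Genes whose counts averaged 5 or more over the libraries were normalized by TMM and tested with the quasi-likelihood test of edgeR 4.0.16 (R 4.3.3), LME-sEVs against HCME-sEVs over all 7 libraries without covariates, with Benjamini and Hochberg adjustment. The study's methods name edgeR, TMM and a minimum of 5 counts, but neither the test within edgeR, the libraries the minimum refers to, nor covariates. Mean ± SD refers to TMM-normalized CPM, and fold changes come from the fit. Alternatives were size factors of DESeq2, upper quartile or library size only; no filter, filterByExpr or 5 counts in every library; DESeq2 1.42.0, limma-voom (limma 3.58.1) and the likelihood ratio and exact tests in edgeR; the replicate number as a block; each library left out; and, for ratios, a pseudocount of 5 in place of 0.5. The fit was tested on simulated data. Coordinates are from GENCODE vM21 (GRCm38), promoters from RefSeq (GRCm38.p6). Transcript ends were compared with blast 2.17.0 over their last 300 bases, and no member shared an end with another gene at 95% identity over 200 bases. Ratios and motifs were computed in Python 3.11.15 (scipy 1.17.1, pandas 2.3.3, numpy 2.4.6), and matplotlib 3.10.9 drew the plots.

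The members, gene lists and marker lists were chosen with earlier results of these data known. Named genes are all 10 members, from each list every gene called or the 6 with the lowest FDR, and the gene most like each called member. Of the list of other adhesion molecules, 1 gene was not found in the count table. Cd96 and Crtam, genes that were not called or lay below the filter, and markers were named after their values were seen. Of the genes that the rule selects, 1 is not reported here.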

Additional observations from a re-analysis of the deposited data

Results flagged for a closer look

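Of the 31 results whose HCME-sEV libraries were compared for a library far from the others (Dixon's test at the 95% level, gap over whole range), 1 stood out, where chance gives 1.55. It was the log2 ratio of Itga4 to Itgb7, whose lowest value, in HCME-sEV library 4 (-0.43), lay apart from the other 3 (-0.14 to -0.09), with a ratio of gap to range of 0.845. That library also had the highest Itgb7 level of all 7 libraries, at 93.6 CPM, while its Itga4 level of 69.6 CPM lay between those of the other HCME-sEV libraries. Without it the difference between the groups in this ratio was 0.28, beside 0.35 with it.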

How the results depend on the processing

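The number of genes called was 1131. Over the other settings with all libraries it ran from 890 (DESeq2 Wald test) to 1399 (likelihood ratio test in edgeR). It was 1454 with the replicate block, and 391 to 1305 over the fits that left out 1 library. It was moved by over 1.5 times without HCME-sEV library 2 (723) and LME-sEV library 2 (391) or 3 (458). Members called numbered 3 in the replicate block and in every other setting with all libraries except the DESeq2 Wald test (2, without Icam1). They numbered 1 to 3 without 1 library, with 1 (Itga4) without HCME-sEV library 4 or LME-sEV library 2 or 3. Over 414 refitted values of the 23 genes that the naming rule selects (members and lists), 384 kept direction and side of the threshold, 28 lost the call and 2 changed sign, both of Cd44, at 0.00521 with library size only and within a range of -0.0921 to 0.0163 without 1 library. Cd74 also lost its call in limma-voom (FDR = 0.0514), the DESeq2 Wald test (FDR = 0.0900) and the replicate block (FDR = 0.0606). The difference in log2 ratio ranged from -0.133 to 0.115 for Itgae to Itgb7 and from -0.0286 to 0.150 for Itgav to Itgb1 without 1 library. The cause of these changes was not tested.

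With the replicate block 3 members were called. HCME-sEV library 4 is the only library of its number, so in the block it adds nothing to the difference between the groups. The differences in log2 ratio with the block therefore equalled those without that library, such as -0.0643 for Itgae to Itgb7. Libraries of the same number correlated at 0.0721, 0.155 and 0.0268, and the value of 0.155 was the highest between any libraries of the 2 groups. HCME-sEV library 3, however, correlated best with LME-sEV library 1 (0.0803). Values this weak do not settle whether a number marks a shared origin, and no pairing was assumed. Without 1 library, or with 3 paired differences, the exact test of a ratio could not pass the threshold, which says nothing of stability. Icam1, Itgav and Itgae rest on 48 to 146 counts per library; the part of depth in their intervals was not tested.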
